A study of Mus musculus with 21 samples.

Results

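Mitotic spindle and kinetochore genes were followed across mouse prostate tumours, as a list of 45 genes whose products act at the entry into mitosis, at the spindle, at the kinetochore and in cell division. The list was made by gene name, and each gene was read from its probe with the highest mean deposited intensity. It was set among 19020 genes named for the probes of the array. Ccnb1 and Mki67 had no probe named for them in the annotation used and were not analysed here. Another 10 genes were not detected on at least 3 of the 21 arrays, and these were Ccnb2, Ccna2, Bub1, Ttk, Cenpe, Tpx2, Ckap2l, Hmmr, Kif20a and Racgap1. The remaining 33 genes were tested together with all 12570 genes that passed the same filter. A gene that passes only through the group in which it is high had to differ, so counts are also given for the 21 genes detected on every array. The genes seen least often were Nuf2 and Ect2 on 3 arrays each, Cdc25c and Cenpf on 6 each, and Melk and Kif11 on 7 each.

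Total RNA from tumours of the anterior prostate was hybridised to Illumina bead arrays, with 1 array per sample. The genotype NP had 8 arrays, NPK with no stage in the labels had 8, NPK_1Month, labelled as an early stage, had 3, and NPK_3Month, labelled as a late stage, had 2. The labels give the genotypes by these letters. Strain, age and the event from which the months were counted are not given in the labels. Since no label ties samples to separate animals, the p-values rest on the spread from sample to sample, which may be technical in part.

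In dividing cells Cdk1 with its cyclins drives entry into mitosis, the kinetochore built on each centromere binds spindle microtubules, and a checkpoint holds the cell until every kinetochore is attached. The activator Cdc20 then directs the anaphase-promoting complex to release separase, sister chromatids part, and the midzone proteins guide the cleavage of the cell. Most of these genes are transcribed in a burst in G2 phase and mitosis, and their RNA is widely read as a measure of how much of a tissue is dividing. That burst is known to run through the transcription factor Foxm1 and the DREAM and MMB complexes, which bind a promoter element called the cell cycle genes homology region (CHR), often with CCAAT boxes bound by NF-Y close to it.

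Promoter sequences are shown because the genes moved together and because these elements lie close to the starts of many of them. RefSeq windows from 250 bases before to 50 bases after the gene start (build GRCm38.p6) were matched by symbol for 37 of the 45 genes. No window was matched for Ccna2, Cdc25c, Foxm1, Aurkb, Incenp, Spc24, Tpx2 and Kif20a. Searched on both strands, the CHR letters TTTGAA or TTCGAA were present for 30 of the 37 genes (81.1%), against 21.7% of all 27025 genes with a window. A gene was counted once if any of its windows held the letters, and Prc1 and Ect2 had 2 windows each. The letters CCAAT were present for 28 genes (75.7%, against 41.1%), and both elements in the same window for 26 (70.3%, against 8.6%). The short GC-rich letters GGCGG or GGCGC were present for 35 genes (94.6%, against 57.1%). These last letters can share their first bases with a CCAAT box read on the other strand, as in Cdk1 (ATTGG followed by cgg). The 6 stretches below run from 160 bases before to 30 bases after the gene start, with CHR and CCAAT letters in capitals as they read on either strand (CCAAT reads ATTGG and TTTGAA reads TTCAAA on the other strand). Cdk1, Cdc20, Cenpa, Kif11 and Kif23 stand for the entry, checkpoint, kinetochore, motor and midzone genes, and Birc5, whose stretch has no capitals, stands for the windows with neither element.
Cdk1 (chr10:69352883-69353072, minus strand): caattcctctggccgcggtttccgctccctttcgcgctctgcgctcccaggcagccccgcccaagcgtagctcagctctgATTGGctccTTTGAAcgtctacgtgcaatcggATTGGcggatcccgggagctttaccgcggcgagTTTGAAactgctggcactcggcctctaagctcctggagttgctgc
Cdc20 (chr4:118437314-118437503, minus strand): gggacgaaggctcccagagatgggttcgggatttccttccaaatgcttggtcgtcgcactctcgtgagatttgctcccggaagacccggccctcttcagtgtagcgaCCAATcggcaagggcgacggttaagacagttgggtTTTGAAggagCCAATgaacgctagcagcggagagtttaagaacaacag
Cenpa (chr5:30666726-30666915, plus strand): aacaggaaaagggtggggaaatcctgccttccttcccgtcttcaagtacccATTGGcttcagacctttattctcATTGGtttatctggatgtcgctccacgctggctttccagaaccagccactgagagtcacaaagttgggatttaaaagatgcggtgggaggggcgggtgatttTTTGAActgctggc
Kif11 (chr19:37376222-37376411, plus strand): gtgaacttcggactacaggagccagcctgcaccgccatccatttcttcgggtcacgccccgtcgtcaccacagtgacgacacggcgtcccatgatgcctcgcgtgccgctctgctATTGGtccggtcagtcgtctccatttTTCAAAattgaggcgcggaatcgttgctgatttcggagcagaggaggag
Kif23 (chr9:61946770-61946959, minus strand): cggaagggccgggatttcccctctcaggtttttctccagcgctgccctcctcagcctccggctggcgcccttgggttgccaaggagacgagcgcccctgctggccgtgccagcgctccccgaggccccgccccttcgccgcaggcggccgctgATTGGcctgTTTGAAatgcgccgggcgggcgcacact
Birc5 (chr11:117849077-117849266, plus strand): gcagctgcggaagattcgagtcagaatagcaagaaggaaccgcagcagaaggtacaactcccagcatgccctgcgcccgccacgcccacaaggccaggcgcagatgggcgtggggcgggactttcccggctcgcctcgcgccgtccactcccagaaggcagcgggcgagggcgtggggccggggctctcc

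The first base of the CHR of Cdc20 lies 18 bases before the start and that of Kif11 lies 19 bases before it, in Kif11 on the other strand. In Cenpa it lies 17 bases after the start and in Kif23 3 bases after it. Cdk1 has a CHR at 71 and another at 15 bases before the start, each with a CCAAT box ahead of it. Across the 30 genes with a CHR, the one nearest the start lay between 60 bases before and 30 bases after it in 23. Taking the nearest match favours positions close to the start, and the same share was not computed over all genes. A match of letters is a description and not a measured binding site.

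**Figure D1:**
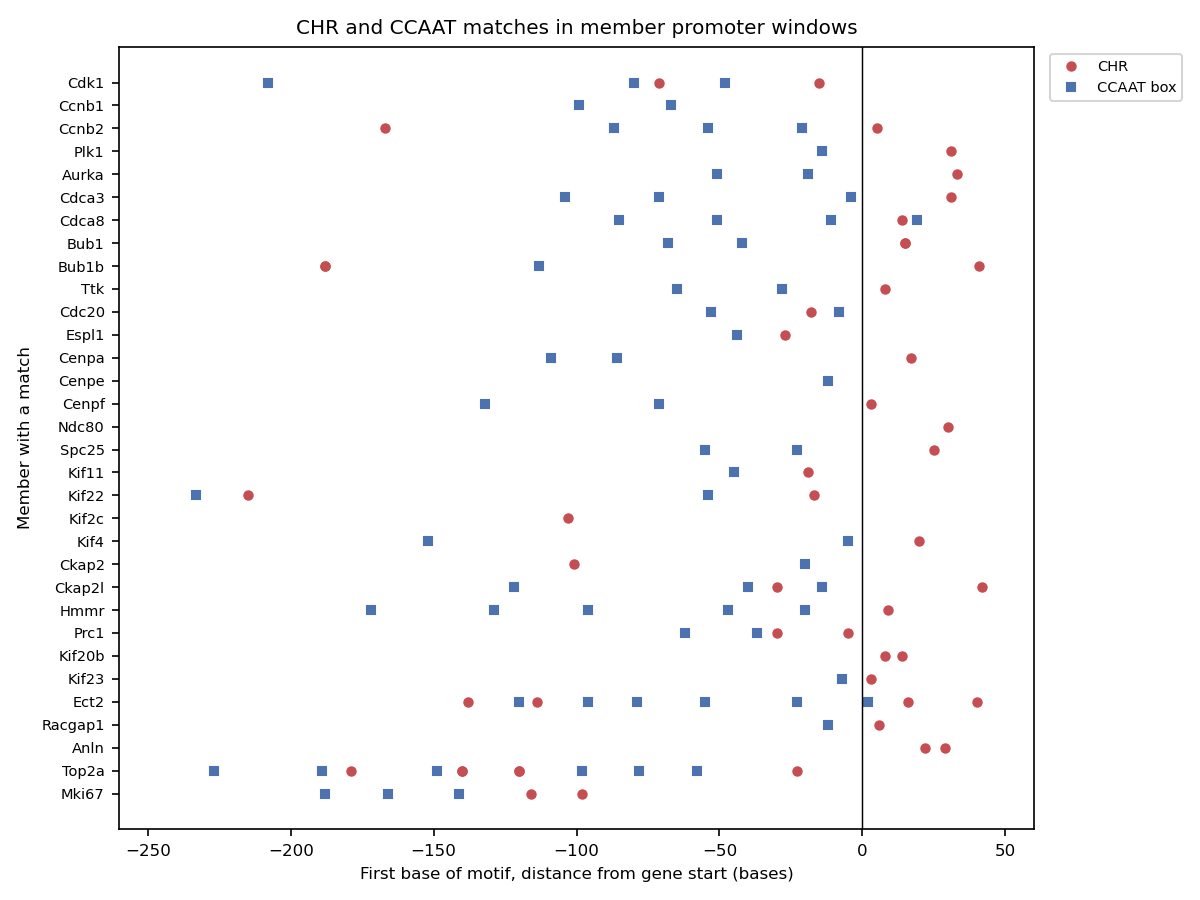
Positions of CHR letters (red circles) and CCAAT boxes (blue squares), on either strand, in the promoter windows of the listed genes with a match. The x axis is the distance of the first base from the gene start in bases and the y axis lists the genes; most red circles lie within 60 bases before to 30 bases after the start, and blue squares lie mostly ahead of them.

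Several facts of the arrays bear on what follows. No chip held both NP and NPK samples. The 5 arrays labelled by month shared 1 chip with no other array, so NPK_3Month and NPK_1Month were compared within a chip, whereas chip and genotype cannot be told apart. NP replicates 4 and 5 were closer to each other than the arrays of any other pair (SD of log2 differences 0.13 over 3981 bright probes, against 0.32 for the second closest) and were counted as 1 sample, which leaves 7 NP samples. The 2 NPK_3Month arrays were the least alike of all pairs (SD 0.86). The tissue label was checked against 15 luminal marker genes, of which 11 passed the filter, among them Krt8, with a mean log2 intensity of 14.72 in NP and 14.10 in NPK_3Month; Pbsn and Hoxb13 did not pass the filter. Precision is limited by the number of arrays, most of all for the 2 samples of NPK_3Month. All levels are background-corrected, quantile-normalised log2 intensities, and levels of different probes are not compared.

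Taken over the 21 genes detected on every array, the mean log2 level was higher in NPK than in NP and highest in NPK_3Month, sample by sample as well as on average. In NP the sample means ran from 7.32 to 7.75 with a median of 7.45. In NPK they ran from 8.08 to 9.00 with a median of 8.34. The 3 NPK_1Month samples had 8.42, 8.07 and 9.01, within or next to the range of NPK. The 2 NPK_3Month samples had 10.73 and 10.55, and the lower of them was above every other sample. NP and NPK did not overlap, nor did NPK_3Month and any other group. In these bulk samples a larger share of dividing cells and more RNA of these genes per cell cannot be told apart.

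**Figure D2:**
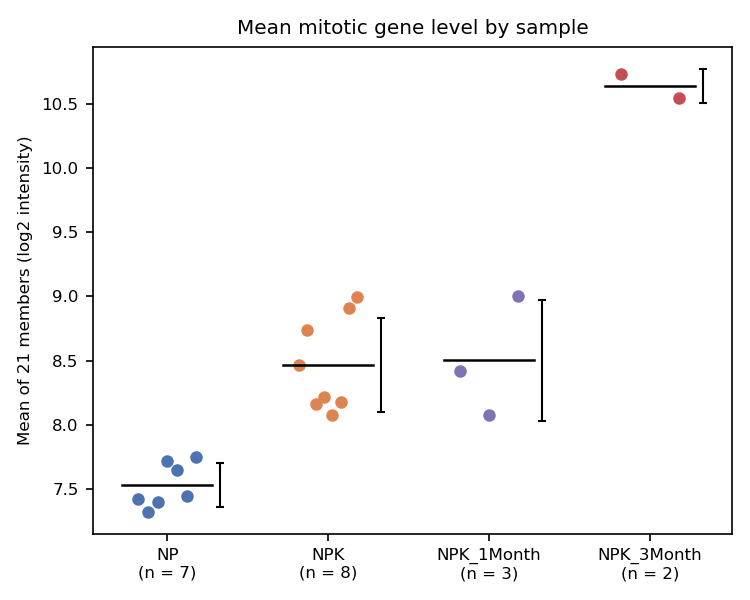
Mean log2 intensity of the 21 genes detected on all arrays, 1 point per sample, with the group mean as a line and the SD as a bar beside it. The NP samples sit between 7.32 and 7.75, the NPK samples between 8.08 and 9.00, and both NPK_3Month samples at 10.55 or above.

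Nearly all of these genes took part at 3 months. For 19 of the 21, both NPK_3Month samples lay above every other sample of the study, by as little as 0.04 on the log2 scale for Kif23 and by as much as 2.27 for Anln, where 14.8% of all genes detected on every array lay so. The exceptions were Spc24 and Incenp. Group means were in the order NP, NPK, NPK_1Month, NPK_3Month for 12 genes, and in the order NP, NPK_1Month, NPK, NPK_3Month for 8, with Spc24 as the remaining gene. Within groups the genes also moved together: among the 3 NPK_1Month samples, replicate 3 was the highest for 19 of the 21 genes and replicate 2 the lowest for 19. Within NPK, replicate 8 was the highest for 11 genes and replicate 7 for 6. Such counts of highest and lowest samples were made for these 21 genes only, with no share over all genes beside them. The median SD of the 21 genes was 0.30 in NP, 0.46 in NPK, 0.52 in NPK_1Month and 0.18 in NPK_3Month, against 0.25, 0.28, 0.18 and 0.25 over all genes detected on every array, so it was wider in 3 groups and narrower in NPK_3Month.

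**Figure D3:**
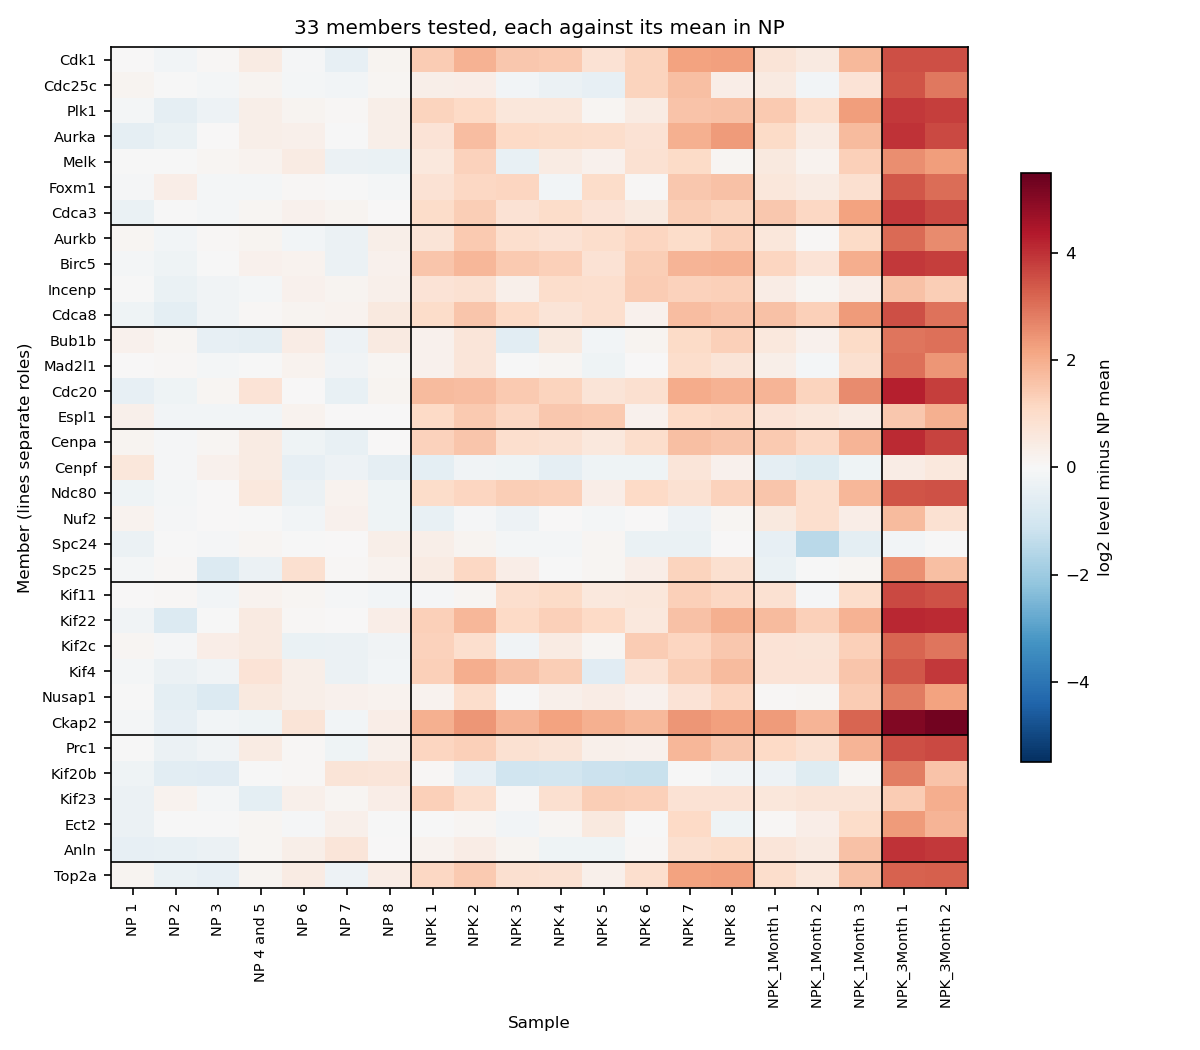
Log2 level of the 33 tested genes in each of the 20 samples, minus the gene's mean in NP, with genes in rows grouped by role and samples in columns grouped by genotype and stage. Both NPK_3Month columns are the deepest red in most rows, though the depth differs between rows, and the NPK and NPK_1Month columns are mostly lighter red. Spc24 and Cenpf stay pale, and Nuf2 and Incenp are light red at most.

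NPK was compared with NP, the comparison of the genotypes. Of the 33 genes tested, 21 were higher in NPK, none (0) was lower and 12 did not pass the threshold (limma, Benjamini-Hochberg adjusted p under 0.05 over 12570 genes). Among all genes tested, 15% were called higher and 18.3% lower. Of the 21 genes detected on every array, 16 were higher, against 17.6% of all such genes. The median change of the 33 was 0.92 on the log2 scale, against -0.01 over all genes. For 8 of the 33 the lowest NPK sample lay above the highest NP sample, against 2.86% of all genes. The fits take each change as a difference of group means with its moderated SE, from all 4 groups together.

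Among the genes of mitotic entry, 5 of 7 tested were higher in NPK. Cdk1, the kinase that drives entry, ran from 7.08 through a median of 7.55 to 7.97 in NP and from 8.35 through 9.00 to 9.81 in NPK. Every NPK sample was above every NP sample, and the difference was 1.59 ± 0.22 (SE), or 3.01-fold, with an adjusted p of 4.91e-05. Aurka, the kinase of centrosome maturation and spindle poles, rose by 1.33 ± 0.25, and Cdca3, which promotes entry by way of the degradation of Wee1, rose by 1.00 ± 0.16; neither overlapped between the groups. Plk1, a kinase active from entry to cytokinesis, ran from 6.49 through 7.01 to 7.28 in NP and from 7.05 through 7.83 to 8.60 in NPK, a rise of 0.92 ± 0.24 with overlapping groups. Foxm1, the transcription factor of the G2 and M phase programme, ran from 6.13 through 6.18 to 6.64 in NP and from 6.09 through 7.34 to 7.86 in NPK. Its rise was the smallest of the 5 at 0.89 ± 0.22, and 2 NPK samples lay below the highest NP sample. Cdc25c, the phosphatase that activates Cdk1, and the kinase Melk were detected on no NP array and did not pass (0.37 ± 0.26 and 0.52 ± 0.22).

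The chromosomal passenger complex, which corrects faulty attachments and later acts at the midzone, was higher in all 4 of its listed subunits. Its kinase Aurkb ran from 5.95 through 6.35 to 6.60 in NP and from 7.01 through 7.28 to 7.70 in NPK, without overlap, a rise of 1.05 ± 0.15 (2.07-fold, adjusted p 5.83e-05). Birc5, also called survivin, ran from 6.92 through 7.20 to 7.49 in NP and from 8.03 through 8.70 to 9.15 in NPK, again without overlap. Its rise of 1.50 ± 0.19 was the largest of the complex and that of the scaffold Incenp, 0.97 ± 0.15, the smallest. Cdca8, or borealin, lay between them at 1.09 ± 0.22.

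The spindle assembly checkpoint and anaphase genes were divided. Cdc20, the activator of the anaphase-promoting complex, ran from 6.96 through 7.42 to 8.13 in NP and from 8.12 through 8.95 to 9.44 in NPK, and rose by 1.45 ± 0.24 (2.74-fold, adjusted p 0.000186). The highest NP sample and the lowest NPK sample were nearly level. Espl1, the protease separase that cleaves cohesin, rose by 1.14 ± 0.16. The checkpoint proteins Bub1b and Mad2l1, which hold Cdc20 back, did not pass, with changes of 0.41 ± 0.25 (adjusted p 0.209) and 0.31 ± 0.18 (adjusted p 0.205). A second detected probe of Mad2l1 went the other way in this comparison, by -1.41.

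At the centromere and kinetochore 2 of 6 genes tested passed. Cenpa, the histone H3 variant that marks centromeres, ran from 8.83 through 9.26 to 9.71 in NP and from 9.84 through 10.37 to 10.90 in NPK, without overlap. The rise was 1.16 ± 0.17 (2.24-fold, adjusted p 8.78e-05), the largest of the role. The subunits of the Ndc80 complex, which is the main microtubule receptor of the kinetochore, differed among themselves. Ndc80 ran from 5.01 through 5.22 to 5.91 in NP, where it was detected on 2 of 8 arrays, and from 5.69 through 6.44 to 6.67 in NPK, a rise of 1.05 ± 0.17. A second probe of Ndc80, detected on 3 arrays, gave -0.18, and with the mean of both the change was 0.44 and not called (adjusted p 0.0555). Spc24 was at 8.37 ± 0.19 (SD, n = 7) in NP and 8.33 ± 0.24 (SD, n = 8) in NPK, a difference of -0.04 ± 0.15. Spc25 differed by 0.56 ± 0.23 (adjusted p 0.0697), and Nuf2 was not detected on any NP or NPK array. Cenpf, a large protein of the outer kinetochore, differed by -0.13 ± 0.19 and was detected on 3 of 8 NP and 1 of 8 NPK arrays.

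Of the spindle motors and microtubule proteins 5 of 6 were higher. Ckap2, a microtubule-stabilising protein, had the largest change of all 33 genes, 2.10 ± 0.20 (4.30-fold, adjusted p 2.15e-06), and was at 4.88 to 6.05 in NP and 7.12 to 7.77 in NPK; only 2 of 8 NP arrays detected it. Kif22, a chromosome-bound motor, rose by 1.35 ± 0.20 without overlap. Kif4, which compacts chromosome arms, and the microtubule depolymerase Kif2c rose by 1.19 ± 0.30 and 0.83 ± 0.24. Kif11, the motor that pushes the spindle poles apart, ran from 4.91 through 5.07 to 5.26 in NP and from 4.98 through 5.83 to 6.35 in NPK. No NP array and 3 of 8 NPK arrays detected it, and the fitted rise was 0.70 ± 0.20 (adjusted p 0.00986). The rise was 1.17-fold with NP raised to the lowest detected level. This is no firm bound, since most NPK arrays did not detect Kif11 either. The call was lost without the chip of NP 1 to 5 and without that of NP 6 to 8 (adjusted p 0.0672 and 0.066). Nusap1, which bundles microtubules near chromosomes, did not pass (0.50 ± 0.25).

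Among the midzone and cytokinesis genes 2 of 5 passed. Prc1, which bundles the antiparallel microtubules of the midzone, ran from 8.51 through 8.83 to 9.29 in NP and from 9.09 through 9.85 to 10.68 in NPK, a rise of 0.99 ± 0.23 (adjusted p 0.0028) with overlapping groups. Kif23, the motor of centralspindlin, rose by 0.92 ± 0.19. Anln, the furrow scaffold anillin, differed by 0.28 ± 0.22, and Ect2, which activates RhoA for the cleavage furrow, was detected on no array of either group. Kif20b, a motor of late cytokinesis, had the lowest change of the 33, -0.64 ± 0.27 (adjusted p 0.0757). Top2a, the topoisomerase that untangles sister chromatids, ran from 6.95 through 7.55 to 7.85 in NP and from 7.68 through 8.45 to 9.66 in NPK, and rose by 1.24 ± 0.27 (adjusted p 0.0017).

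**Figure D4:**
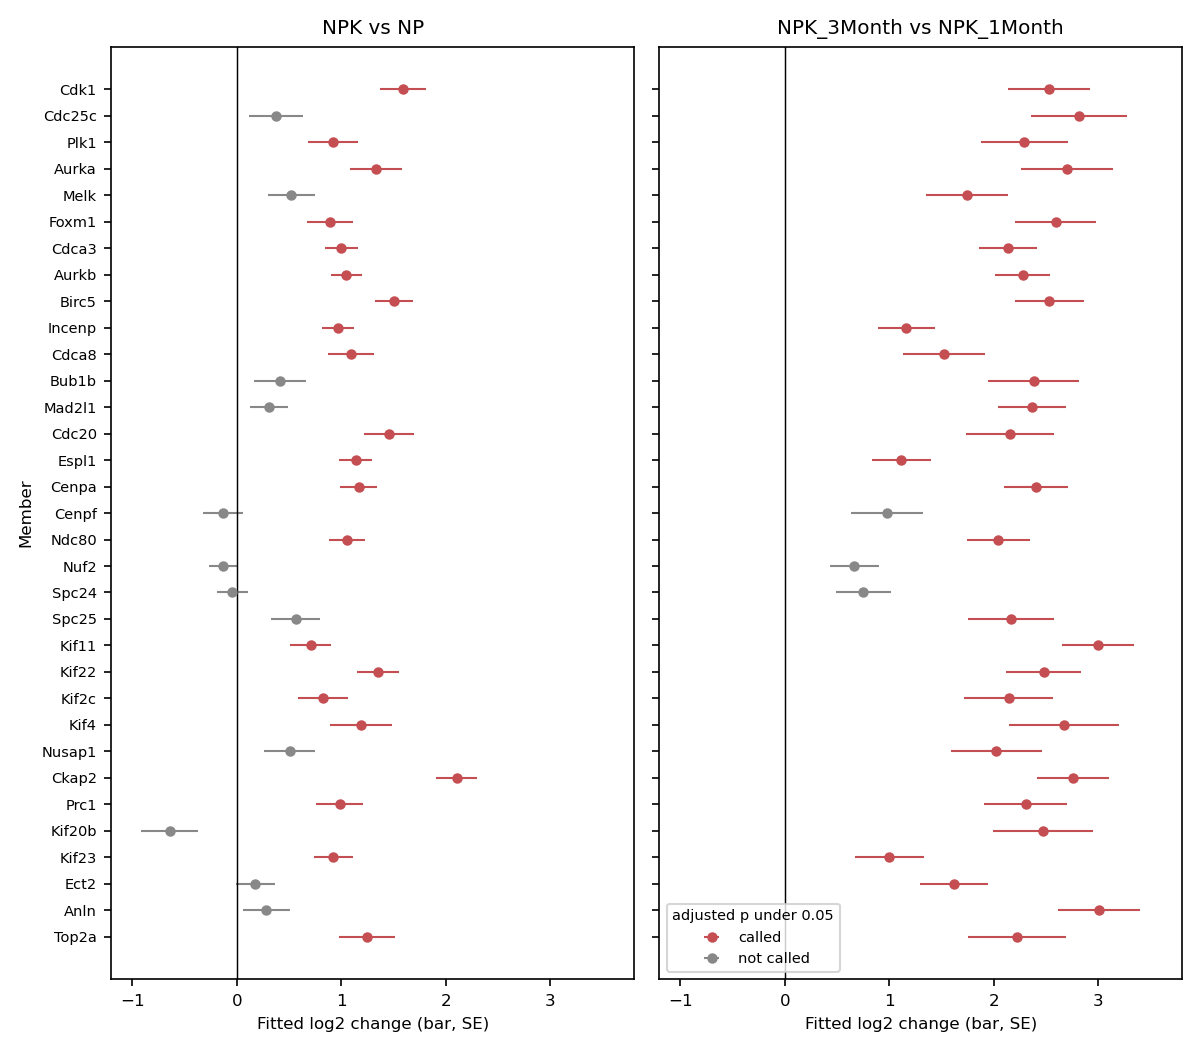
Fitted log2 change of each of the 33 tested genes (points, with SE as bars) for NPK against NP on the left and NPK_3Month against NPK_1Month on the right, red where the limma adjusted p was under 0.05. On the left 21 points are red and Ckap2 lies farthest right at 2.10; on the right 30 are red and Kif11 and Anln lie at 3.00.

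These counts depended in part on the scaling and the chips. Scaling the arrays to a common median in place of quantile normalisation moved the median of all genes to -0.38, and 16 of the 33 genes were then higher and 2 lower, namely Spc24 and Kif20b, with a median that was 0.87 above that of all genes; Plk1, Foxm1, Kif2c, Prc1 and Kif23 were no longer called. Without the chip of NP 1 to 5, Plk1, Cdca8 and Kif23 also lost their calls and Kif20b was called lower (-1.12, adjusted p 0.025), and Kif2c lost its call without the chip of NP 6 to 8. On the chips of one barcode series Espl1, Foxm1 and Prc1 were not called, and with the mean of all detected probes neither Kif23 nor Ndc80 was. With the authors' processed values 21 genes were called, with a median change of 0.38 in place of 0.92.

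Markers of other cells also differed between NP and NPK. All 7 endothelial markers were higher in NPK, and their summed intensity was 1361 to 2153 in NP and 2609 to 5569 in NPK. The sums of the 6 smooth muscle markers tested were 3149 to 10596 in NP and 7719 to 53375 in NPK, with 5 of the 6 higher. Of 8 fibroblast markers 4 were higher. The 5 T and NK cell markers tested were all lower, with sums of 1117 to 5044 in NP and 437 to 1348 in NPK; Lck and Gzma had no probe named for them and Cd8a did not pass the filter. Of 7 seminal vesicle markers 5 were higher, and their sum ran from 223 to 5001 in NP and from 1207 to 199018 in NPK. The luminal sums were 111923 to 125771 in NP and 102622 to 117153 in NPK. The part of the other cell types in the result was not tested.

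NPK_3Month was compared with NPK_1Month, the comparison of late with early stage, in which all 5 arrays lay on 1 chip. Of the 33 genes tested, 30 were higher at 3 months and none (0) was lower, against 9.42% of all genes called higher and 9.75% lower. The genes that did not pass were Cenpf, Nuf2 and Spc24, with adjusted p-values of 0.0514, 0.0502 and 0.0521 (limma). Of the 21 genes detected on every array 20 were higher, against 11.8% of such genes. The median change of the 33 was 2.28, against 0.02 over all genes. With the authors' processed values the median was 1.27 and 24 were called; Cdca8, Espl1, Nusap1, Kif20b, Ect2 and Kif23 were not, and their changes were then 0.33 (Espl1) to 1.24 (Cdca8). The samples did not overlap for 32 of the 33, all but Nuf2, where 25.3% of all genes were higher without overlap.

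All 7 entry genes tested were higher at 3 months. Cdk1 was at 8.25, 8.01 and 9.34 in the NPK_1Month samples and at 11.06 in both NPK_3Month samples, a rise of 2.53 ± 0.39 (5.76-fold, adjusted p 0.000182). Foxm1 was at 6.87, 6.69 and 7.13 and then at 9.66 and 9.31, a rise of 2.59 ± 0.39 (6.02-fold). Plk1 was at 8.40, 7.88 and 9.26 and then at 10.85 and 10.76, a rise of 2.29 ± 0.42 (4.90-fold). In each case the 1-month samples were spread over a wider range than the 3-month samples, with replicate 3 the highest of them. The largest change of the role was that of Cdc25c, 2.81 ± 0.46, detected on 2 of 3 arrays at 1 month, and the smallest that of Melk, 1.74 ± 0.39.

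The 4 passenger subunits were higher as well. Aurkb was at 6.92, 6.36 and 7.32 at 1 month and at 9.40 and 8.89 at 3 months, a rise of 2.28 ± 0.26 (4.84-fold, adjusted p 1.73e-05). Birc5 was at 8.42, 7.98 and 9.25 and then at 11.11 and 11.05, a rise of 2.53 ± 0.33. Incenp had the smallest change of the complex, 1.16 ± 0.27, as it had in NPK against NP. Its 3-month samples, at 9.38 and 9.12, lay on either side of the highest NPK sample, at 9.18.

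Both sides of the checkpoint were higher at 3 months, unlike in NPK against NP, where Bub1b and Mad2l1 did not pass; the difference between the comparisons was not tested. Cdc20 was at 9.27, 8.60 and 9.97 at 1 month and at 11.68 and 11.18 at 3 months, a rise of 2.15 ± 0.42 (4.45-fold, adjusted p 0.0012). Bub1b had the largest change of the role, 2.38 ± 0.44, closely followed by Mad2l1 at 2.36 ± 0.32, whose second probe gave 2.37. Espl1 had the smallest, 1.12 ± 0.28.

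Kinetochore genes again differed among themselves, with 3 of 6 called. Cenpa was at 10.67, 10.40 and 11.13 at 1 month and at 13.33 and 12.95 at 3 months, a rise of 2.41 ± 0.31 (5.30-fold, adjusted p 4.18e-05). Ndc80 was at 6.85, 6.23 and 7.12 and then at 8.75 and 8.80, a rise of 2.04 ± 0.30. Spc25 rose by 2.17 ± 0.41, while its partner Spc24 was at 7.91, 6.90 and 7.85 and then at 8.24 and 8.37, a difference of 0.75 ± 0.26. The level of Spc24 at 3 months was within the range of NP, which was 8.04 to 8.69. A second probe of Spc24, detected on 9 arrays, gave 1.54 in this comparison. Nuf2 differed by 0.67 ± 0.23 with overlapping samples, and Cenpf, detected on no NPK_1Month array, by 0.98 ± 0.34. Neither was called. A second probe of Cenpf, detected on 5 arrays, gave 0.16.

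All 6 motors and microtubule proteins were higher. Kif11 was at 5.89, 5.01 and 6.05 at 1 month, where 2 of 3 arrays detected it, and at 8.71 and 8.59 at 3 months. This rise of 3.00 ± 0.35 (8.00-fold, adjusted p 1.66e-05) was the largest of the role. Ckap2 followed with 2.75 ± 0.35 and Kif4 with 2.67 ± 0.53, and Nusap1 had the smallest change at 2.02 ± 0.44.

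The 5 midzone and cytokinesis genes were all called. Anln was at 8.86, 8.73 and 9.83 at 1 month and at 12.18 and 12.11 at 3 months, and its rise of 3.00 ± 0.39 (8.02-fold, adjusted p 5.36e-05) was the largest of the 33 genes. Prc1 was at 9.95, 9.70 and 10.70 and then at 12.38 and 12.46, a rise of 2.31 ± 0.40. Kif20b rose by 2.47 ± 0.48 and Ect2 by 1.62 ± 0.33, Ect2 being detected on 1 of 3 arrays at 1 month. Kif23 was at 9.70, 9.80 and 9.81 and then at 10.46 and 11.08, the smallest change of the called genes at 1.00 ± 0.33 (adjusted p 0.0401). That call was lost when any of the 5 samples was left out (adjusted p up to 0.293). Top2a was at 8.37, 8.02 and 9.05 at 1 month and at 10.68 and 10.72 at 3 months, a rise of 2.22 ± 0.47 (4.66-fold, adjusted p 0.00252).

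**Figure D5:**
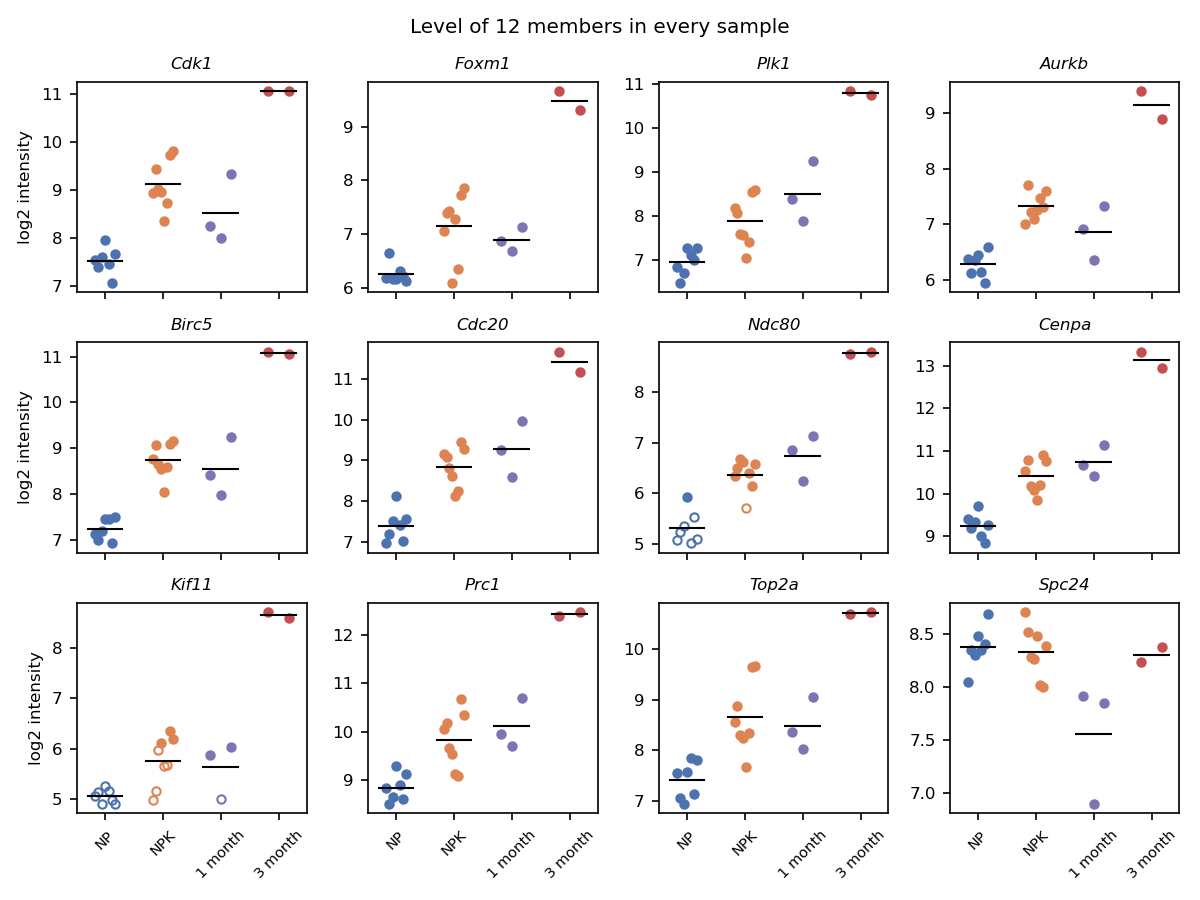
Log2 intensity of 12 genes in every sample, with group means as lines; open circles mark samples in which the probe was not detected. In 11 panels the NPK_3Month points lie above all others, and in the panel of Spc24 they lie within the range of NP and NPK.

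The 2 NPK_3Month samples were alike in these genes although they were the least alike over all bright probes. Replicate 1 was the higher for 22 of the 33 genes, and the median difference was 0.25 over the 21 genes detected on every array. Without replicate 1, 24 of the 33 genes were called, and Melk, Incenp, Cdca8, Nusap1, Kif20b and Kif23 were not (adjusted p 0.0521 to 0.135). Without replicate 2, 29 were called, with Espl1 and Kif23 lost and Nuf2 gained.

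Markers of other cells moved between these stages too. The summed intensity of the 7 seminal vesicle markers was 87870 to 213310 at 1 month and 528 to 15463 at 3 months, with 5 of the 7 called lower. That of the 6 skeletal muscle markers was 8160 to 14289 and then 1336 to 1445, again with 5 called lower. Luminal markers fell, with 5 of the 11 tested called lower and sums of 92640 to 109319 and then 35442 to 52277; the adhesion gene Cdh1 went from a mean of 11.42 to 9.04. Among the 1-month samples, replicate 3 had the lowest seminal vesicle sum, 87870, and the highest mean of the mitotic genes, and replicate 2 the highest sum, 213310, and the lowest mean. The T and NK cell sums were 294 to 596 at 1 month and 137 to 173 at 3 months, and no marker of that list was called. The part of these cells in the result was not tested.

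NPK_1Month was compared with NP and with NPK to place the early stage. Against NP, 19 of the 33 genes were higher and 1, Spc24, was lower, against 17.8% and 19.7% of all genes. The largest rise was that of Ckap2, 2.46 ± 0.26 (5.52-fold, adjusted p 2.72e-06), followed by Cdc20 at 1.89 ± 0.32, Cdca8 at 1.75 ± 0.29 and Kif22 at 1.65 ± 0.27. The size for Cdc20 rests on the probe used. Its further probes gave 0.58 and 1.14, each detected on 21 arrays, and 0.10, detected on 12. A second probe of Cdca8 gave 1.32. Spc24 fell by 0.82 on the log2 scale (SE 0.20, adjusted p 0.00357), and this call was lost when replicate 2 of NPK_1Month, at 6.90, was left out (adjusted p 0.0559). The second probe of Spc24 went the other way, by 0.51, and the mean of both gave -0.16 (adjusted p 0.555). The 13 that did not pass were Cdc25c, Melk, Foxm1, Incenp, Bub1b, Mad2l1, Cenpf, Spc25, Kif11, Kif4, Nusap1, Kif20b and Ect2. Of the 21 genes detected on every array 15 were higher and 1 lower, against 18.8% and 20.9% of such genes. The called genes also included Nuf2, which was detected on 1 NPK_1Month array and on no NP array. With NP raised to the lowest detected level, its fold was only 1.00. The count was 12 without replicate 3 of NPK_1Month and 12 with the chip as a random block. No chip held samples of both groups, so chip and group cannot be told apart. Markers of other cells differed too. All 7 seminal vesicle and all 6 skeletal muscle markers were higher in NPK_1Month, and all 5 T and NK cell markers tested were lower. The part of these cells in the result was not tested.

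Against NPK_1Month, NPK differed in 4 of the 33 genes, 2 higher and 2 lower, where 10.8% of all genes were higher and 10.4% lower. These groups too lay on different chips, so chip and group cannot be told apart. Incenp was higher in NPK by 0.66 ± 0.20 (adjusted p 0.024) and Spc24 by 0.77 ± 0.19 (adjusted p 0.008). The Incenp call was lost when any NPK_1Month sample was left out (adjusted p 0.0559 to 0.126). The second probe of Spc24 gave -0.62, and the mean of both gave 0.08 (adjusted p 0.809), so the direction for Spc24 rests on the probe used. Cdca3 was lower by -0.61 ± 0.21 (adjusted p 0.0432). That call was lost without NPK replicate 1, 3, 4, 5 or 6, and without NPK_1Month replicate 1 or 3 (adjusted p 0.0553 to 0.343). A second probe of Cdca3 gave -0.17, and the mean of both gave -0.39 (adjusted p 0.344). Nuf2 was called lower as well (adjusted p 0.0041), but no NPK array and 1 NPK_1Month array detected it, and no fold can be bounded. Of the 33, only Spc24 (higher) and Nuf2 (lower) did not overlap between the groups, where 9.94% of all genes were higher and 9.81% lower without overlap. The median difference of the 33 was -0.05, against -0.03 over all genes. The other 29 did not pass, which does not show that the groups were alike: Cdk1, for example, differed by 0.59 ± 0.29 and Plk1 by -0.63 ± 0.31.

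NPK_3Month was higher than NPK without stage for 29 of the 33 genes, against 20.8% of all genes, and lower for none (0), against 18.3%. This comparison shares its NPK_3Month samples with that of NPK_3Month against NPK_1Month. NPK_3Month and NPK lay on different chips, so chip and group cannot be told apart here. Anln had the largest change, 3.65 ± 0.34 (12.5-fold, adjusted p 4.24e-07), followed by Ckap2 at 3.12 ± 0.30, Plk1 at 2.92 ± 0.36 and Kif11 at 2.88 ± 0.30. The 4 that did not pass were Incenp (0.50 ± 0.23), Espl1 (0.58 ± 0.24), Cenpf (0.63 ± 0.30) and Spc24 (-0.03 ± 0.23). With the mean of all its detected probes Spc24 was higher by 1.07 (adjusted p 0.000931), since its second probe gave 2.16. The groups did not overlap for all 29 called genes, against 19.5% of all genes that were higher without overlap. Markers of other cells differed here too, with 8 of 11 luminal, 4 of 7 basal and 4 of 5 T and NK cell markers lower. Of the basal markers 1 was higher. The part of these cells in the result was not tested.

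Other probes of the same genes gave a partial check. There were 20 further detected probes for 15 of the 33 genes. Their fitted change had the same sign as that of the probe used for 20 of 20 in NPK_3Month against NPK_1Month and for 17 of 20 in NPK against NP. The median over these probes was 2.21 in the first comparison, against 2.15 for the probes used, and 0.69 in the second, against 1.03. The sign was the same for 19 of 20 in NPK_3Month against NPK (median 2.15, against 2.35 for the probes used). It was the same for 17 of 20 in NPK_1Month against NP (0.54, against 0.99). In NPK against NPK_1Month only 10 of 20 had the same sign (-0.01, against 0.18). The probes of opposite sign in NPK against NP were that of Mad2l1, that of Ndc80 and one of Kif23, at -0.34. In NPK_3Month against NPK_1Month the same probes of Ndc80 and Kif23 were near 0, at 0.01 and 0.14, against 2.04 and 1.00 for the probes used. Another probe of Kif23, detected on 21 arrays, gave 1.98 in that comparison and 1.25 in NPK against NP. For Cdc20 in NPK against NP, a dim probe detected on 12 arrays gave 0.07, while its other 2 probes gave 1.38 and 1.65. That dim probe gave 2.56 in NPK_3Month against NPK_1Month.

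A wider set of 113 mitosis genes, in 5 lists that do not include the 45, held 82 that were tested. In NPK against NP 22 were higher (26.8%) and 13 lower (15.9%), with a median change of 0.10, against 15% higher and 18.3% lower of all genes. Of 23 other kinetochore genes 10 were higher and 1 lower; Cenpw, a histone-fold protein of the inner kinetochore, rose by 1.17 ± 0.17, and Cenpq, another inner kinetochore protein, fell by 1.83 (SE 0.38). Of 12 mitotic entry regulators 6 were higher and 1 lower, with the largest rises in the kinase Pbk (1.50 ± 0.24) and in Gtse1 (1.31 ± 0.14), a microtubule-associated regulator of p53. The 11 genes of the anaphase-promoting complex and its partners held no rise (0) and 3 falls (27.3%), a count that rests on few genes, the largest in Cdc16, a scaffold subunit, by 0.83 (SE 0.13), and in the E2 enzyme Ube2s, by 0.71 (SE 0.18).

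Of condensin and cohesin 2 of 17 were higher (11.8%) and 4 lower (23.5%) in NPK against NP, shares near those of all genes. Ncaph, the kleisin of condensin I, rose by 1.59 ± 0.21, and Smc3, a core cohesin subunit, fell by 2.09 (SE 0.27) and was detected on 1 of 8 NPK arrays. Of 19 centrosome and spindle genes 4 were higher and 4 lower (21.1% each), also near the background. The largest were the motors Kif18b at 1.26 ± 0.25 and Kifc1, not detected in NP. Kifc1 was 1.53-fold higher with NP raised to the lowest detected level. Under median scaling 14 of the 82 were higher and 27 lower, but that scaling moved all genes down, and the median of the set was 0.16 above that of all genes, against 0.11 before; by list it then held 4 higher and 3 lower kinetochore genes, 5 and 3 entry regulators, 0 and 7 genes of the anaphase-promoting complex, 1 and 6 of condensin and cohesin, and 4 and 8 of centrosome and spindle.

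In NPK_3Month against NPK_1Month 43 of the 82 were higher (52.4%, against 9.42% of all genes) and none (0) lower, with a median of 0.92. Condensin and cohesin had 12 of 17 higher, led by the shugoshins Sgo2a (3.38 ± 0.53) and Sgo1 (2.54 ± 0.58), which protect centromeric cohesin. Other kinetochore genes had 14 of 23 higher, led by Cenpi (2.94 ± 0.33), which was detected on 1 of 3 arrays at 1 month, and Cenpw (2.63 ± 0.30). Centrosome and spindle genes had 10 of 19, led by Kifc1 (2.72 ± 0.28) and Depdc1b (2.40 ± 0.30). Entry regulators had 5 of 12, led by Pbk (3.03 ± 0.41) and Bora, the cofactor of Aurka (2.01 ± 0.38). The anaphase-promoting complex had 2 of 11 (18.2%), Cdc16 (0.88 ± 0.23) and Anapc4 (0.82 ± 0.20), both smaller than the change of any of the 30 called genes of the list of 45. Without replicate 1 of NPK_3Month 26 of the 82 were called.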

How the data were processed

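Total RNA of 21 mouse prostate tumour samples was measured on Illumina bead arrays, and groups were taken from the sample titles; the alleles behind the genotype letters are not reported here. BeadStudio and lumi are named, without versions or roles, in the submitters' processing notes. The deposited intensity table holds linear intensities of 45126 probes, background-subtracted by the authors (seen from values below 0), with no detection p-values or control probes used here. The deposited table of the authors' processed log2 values differs in its upper quartile between the month-labelled arrays (8.34 to 8.35) and the rest (8.60 to 8.64), so it served as an alternative, and only for comparisons inside either set.

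From the intensities, a normal-exponential background model with mean 0 and a noise SD from the values below 0 (8.59 to 26.1 units) was applied, an offset of 16 added, arrays quantile normalised and log2 taken. Probes above the level that noise exceeds with probability 0.01 on at least 3 arrays were kept (24217); probes with 1 gene symbol were used (34767 of all; 18 had several and 10341 are not named here), and 65 gene IDs without a RefSeq match kept their symbol. The brightest probe stood for its gene. A linear model over the 4 groups was fitted to 20 samples with limma 3.58.1 (R 4.3.3; lmFit, then eBayes; two-sided; 16 degrees of freedom left; threshold 0.05 after Benjamini-Hochberg adjustment over 12570 genes). Where no array of the dimmer group detected a probe, its value there was raised to at least the lowest detected level of the array. The fold from it is a lower bound only where all arrays of the brighter group detected the probe, since their values were not raised. The fit and the noise estimate were tested on simulated data. Same-numbered NP and NPK samples deviated with correlations of -0.15 to 0.07, and month-labelled ones with -0.14 and -0.08, so numbers were not taken to pair samples.

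The genes and lists were chosen with earlier results of these data known. Sample values are given for Cdk1, Foxm1, Plk1, Aurkb, Birc5, Cdc20, Ndc80, Cenpa, Kif11, Prc1 and Top2a, and in each role and main comparison the largest and smallest changes and genes not called are named; of the other lists, the 2 largest called changes. Further genes were named after their values were seen. Alternatives covered scaling, offset, filters, probes, chips, array weights, a replicate block and leaving out each sample. Promoter windows were searched in Python 3.11.15.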

Additional observations from a re-analysis of the deposited data

Results flagged for a closer look

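In 68 sets of values (33 genes and their mean, in NP and in NPK) a single sample stood far from the rest in 4, where chance alone gives about 5% of sets. Foxm1 was at 6.64 in replicate 2 of NP, with the next sample at 6.30. Espl1 was at 5.83 in replicate 6 of NPK, with the next at 6.71. Kif4 was at 5.11 in replicate 5 of NPK, below every NP sample but with the next NPK sample at 6.50. Kif23 was at 9.13 in replicate 3 of NPK, with the next at 9.86.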

How the results depend on the processing

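The 21 calls in NPK against NP were 21 to 22 when any sample was left out. The added call was Kif20b, lower, without NPK replicate 1 or 7. It was Melk, higher, without NPK replicate 3, and Spc25, higher, without NP replicate 6 or NPK replicate 4. Under the other alternatives there were 18 to 23 calls (2 of them lower with median scaling, 1 without the chip of NP 1 to 5). The exception was that 16 of 21 remained when only genes detected on all 21 arrays were tested. The 30 in NPK_3Month against NPK_1Month were 24 to 30 without 1 sample. The replicate block gave 21 for NPK against NP, and for NPK_3Month against NPK_1Month it gave 0 of the 33, with a median of 2.51, and 0 of the 82, with a median of 0.97; the numbers pair no samples. For the 82 other mitosis genes, the 35 calls in NPK against NP were 41 with median scaling (14 higher, 27 lower), 23 with the filter of all 21 arrays (an alternative chosen after seeing the data, which tests fewer genes), 23 with chip as a random block, 23 without the chip of NP 1 to 5, 17 on the chips of one barcode series (NP 1 to 5 against NPK 6 to 8) and 19 without the chip of NPK 1 to 5; leaving out 1 sample gave 32 to 37. Their 43 calls in NPK_3Month against NPK_1Month were 24 with the filter of all 21 arrays and 26 to 43 without 1 sample. In NPK_1Month against NP the 20 calls were 12 with chip as a random block and 12 to 20 without 1 sample, and the 29 of the other genes were 17 with the filter of all 21 arrays and 21 to 28 without 1 sample. In NPK against NPK_1Month the 4 calls were 2 with median scaling, with the mean of all detected probes, with chip as a random block, without the chip of NPK 1 to 5 and with only the 2 groups compared, 8 with array weights, and 1 to 4 without 1 sample; the 15 of the other genes were 26 with array weights and 11 to 17 without 1 sample. In NPK_3Month against NPK the 29 calls were 19 of 21 and the 54 of the other genes 26 of 43 with the filter of all 21 arrays, and 28 to 30 and 40 to 55 without 1 sample. Spc24 turned from -0.03 to 1.07 in NPK_3Month against NPK with the mean of all detected probes, as its second probe is higher there. Median scaling moved the median of all genes by -0.37 in NPK against NP, 0.14 in NPK_3Month against NPK_1Month, -0.20 in NPK_1Month against NP, -0.16 in NPK against NPK_1Month and 0.30 in NPK_3Month against NPK. The other causes were not tested, and the chip of the month-labelled arrays could not be left out.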
